A study of Homo sapiens with 3 samples.

Results

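Very wide SRA sites are the stretches of chromatin recovered with SRA over at least 5000 bp in NTERA2, a human embryonal carcinoma line used as a model of pluripotent stem cells. The members were selected on their width in the deposited list of SRA sites, and 659 of 7899 sites (8.34%) met the rule. SRA sites came from chromatin isolation by RNA purification (ChIRP), in which biotinylated oligonucleotides against an RNA retrieve it with the DNA around it. Sites of the RNA helicase p68 came from ChIP with a p68 antibody, and the p68 list held 14131 sites. All chromatin was from the same untreated line, in 3 biological replicates per assay that the authors intersected into 1 list. Neither list carries scores or read counts, so the depth behind a site and the spread between replicates are unknown, and each interval given here covers counting error only. The input sample and the sites recovered with LacZ control probes were not analysed here.

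SRA is a long non-coding RNA first known as a co-activator of steroid receptors. It binds p68, a DEAD box helicase encoded by DDX5 that remodels RNA and co-activates transcription, and it can contact the complexes that trimethylate histone H3 at lysine 4 (TrxG) and lysine 27 (PRC2). A peak caller joins overlapping enriched windows into a single site. The width of a site in the list used here depends as well on how replicate sites were intersected and control sites subtracted, and the list gives no strength of signal to set beside it.

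The sequences through which every site was recovered are the SRA probes, each 20 nt long and designed against the transcript. Of 29 probes, the first and the last in the probe table and those of the highest and lowest GC content (70% and 35%) are shown. They are in lower case throughout because no part of them was matched to a site.
SRA_1: ggctgatgtcatcacatacc
SRA_12: tgttgcctgcggaggcgagg
SRA_23: agtctactttgggaaaaagt
SRA_29: tgaggcagcagtttgtttgg
The sequence of the sites themselves is not printed, because the sites are on hg19 and a genome of that build was not used here. For the same reason genes at the sites are not named.

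The wide SRA sites had a median width of 6148 bp, with quartiles of 5456.5 and 7260 bp. They made up 20.4% of the bases in SRA sites (4.35 of 21.3 Mb). Most were not far above the threshold, with 303 sites under 6000 bp and a further 214 under 7500 bp. Another 117 measured less than 10000 bp, and 25 were wider than that or equal to it. The narrowest members measured 5000 bp (chr11:66767082-66772081) and 5001 bp (chr1:161086781-161091781 and chr12:45624676-45629676). Just outside the rule were sites of 4998 bp (chr20:56147975-56152972), 4992 bp (chr16:85035038-85040029) and 4989 bp (chr1:157969641-157974629). Sites of this width were rarer in the p68 list, where 153 sites (1.08%) reached 5000 bp.

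Among the 12 widest SRA sites, 9 lay on chromosome 1. A pair of them stood 7485 bp apart, the site chr1:33801903-33815234 of 13332 bp and the site chr1:33822720-33833934 of 11215 bp. The widest of all, chr1:204301624-204315638 (14015 bp), was 1214 bp from the next SRA site and belonged to a group of 6. By contrast chr1:220871142-220884280 (13139 bp) and chr1:229332386-229344872 (12487 bp) had no other SRA site within 10 kb. Outside chromosome 1 the widest were chr11:45674588-45686483 (11896 bp), chr7:21204811-21216406 (11596 bp) and chr9:126620416-126631780 (11365 bp). The last of these was isolated, with the nearest SRA site 79811 bp away.

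Location and the distance to other SRA sites come from the list that chose the members and are therefore described without a test. Chromosome 1 held 417 of the 659 wide sites (63.3%) and 27.2% of the narrower ones. Of its 2388 SRA sites, 17.5% were wide (95% Wilson interval 16 to 19%), compared with 4.39% (3.88 to 4.96%) of the 5511 sites elsewhere. The median width of all SRA sites was also higher there, 2947 bp against 2033 bp elsewhere. Chromosome 1 carried 62.7% of the wide sites under 6000 bp, 60.7% of those of 7500 to 10000 bp and 18 of the 25 sites of 10000 bp or more.

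Among the 14 chromosomes with at least 100 SRA sites, chromosome 7 had the next highest share, with 57 wide sites of 484 (11.8%, interval 9.20 to 15.0%), followed by chromosome 12 with 37 of 451 (8.20%, 6.01 to 11.1%). Chromosome 16 held many SRA sites, 1046, but 45 of them were wide (4.30%, 3.23 to 5.71%). On chromosome 17 wide sites numbered 5 of 369 (1.36%) and on chromosome 9 they numbered 4 of 341 (1.17%). Chromosome 19 had 122 SRA sites, and none reached 5000 bp, with an upper limit of the interval of 3.05%. In all, 5 chromosomes (1, 7, 16, 12 and 11) carried 89.1% of wide sites.

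**Figure D1:**
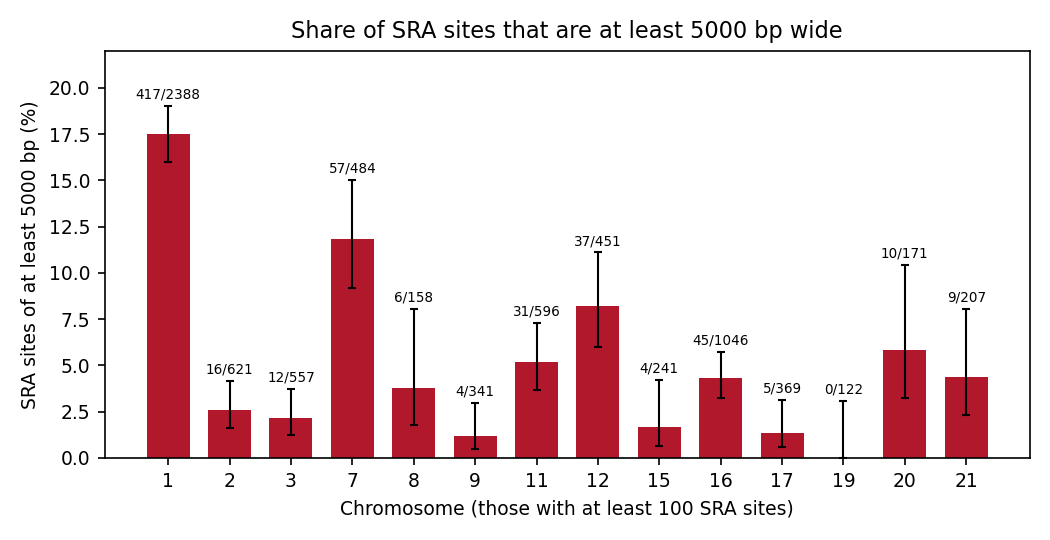
Percent of SRA sites that are at least 5000 bp wide on each of the 14 chromosomes with at least 100 SRA sites, with 95% Wilson intervals as error bars and the numbers of wide and of all SRA sites above each bar. Chromosome 1 stands at 17.5%, above chromosome 7 at 11.8% and chromosome 12 at 8.20%, while chromosome 19 has no wide site.

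The share of wide sites was nearly the same on either side of a gap in chromosome 1. The longest stretch of this chromosome without SRA sites spans 24.6 Mb. Before it, 172 of 986 SRA sites were wide (17.4%, 15.2 to 19.9%), and after it 245 of 1402 (17.5%, 15.6 to 19.6%). In windows of 10 Mb the greatest number, 74 wide sites among 386 SRA sites, lay between 200 and 210 Mb, and the next, 37 among 190, between 30 and 40 Mb. Shares in the windows of chromosome 1 with at least 100 SRA sites ran from 12% to 19.9%. Windows with fewer SRA sites varied more. Between 60 and 70 Mb 25 of 81 were wide (30.9%), between 160 and 170 Mb 24 of 92 (26.1%), and between 90 and 100 Mb 1 of 29 (3.45%). On chromosome 7 the window from 20 to 30 Mb held 28 wide sites of 134 (20.9%), whereas the window from 0 to 10 Mb, with 142 SRA sites, held 5 (3.52%).

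Chromosome 12 changed along its length. Before 40 Mb, a boundary chosen after the windows had been seen, 28 of 62 SRA sites were wide (45.2%, 33.4 to 57.5%), and after it 9 of 389 (2.31%, 1.22 to 4.34%). The p68 sites of the same stretch were wide as well, with a median of 2459 bp for 653 sites before 40 Mb against 1114.5 bp for 722 sites after it. All 73 of the p68 sites of at least 5000 bp on chromosome 12 lay before 40 Mb. The first window, from 0 to 10 Mb, held 17 of these wide SRA sites.

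Wide SRA sites had close neighbours slightly more often than narrower ones. The median gap to the nearest SRA site was 7625 bp for wide and 11718 bp for narrower sites, and 54.3% (50.5 to 58.1%) against 47.5% (46.4 to 48.7%) had another SRA site within 10 kb. Within chromosome 1 the order was the other way round, with 59.2% (54.5 to 63.8%) of wide and 62.5% (60.3 to 64.6%) of narrower sites, and there the median gaps were 6163 and 4409 bp. On the other chromosomes the shares were 45.9% (39.7 to 52.2%) and 41.9% (40.6 to 43.2%). Both classes had close neighbours more often on chromosome 1, which carried most of the wide sites.

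When SRA sites within 10 kb were joined, the wide sites fell into 591 groups, and 301 of them stood alone. In 57 groups there were at least 2 wide sites each, 125 in all. Of the SRA sites next to a wide site within 10 kb, 15.9% were wide too (12.8 to 19.5%), compared with 8.58% (7.79 to 9.44%) of those next to a narrower site. On chromosome 1 alone these shares were 18.4% (14.5 to 23%) and 15.4% (13.7 to 17.2%), with overlapping intervals.

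The groups with the most wide sites lay mainly on chromosome 1. Between 26046889 and 26126423 (hg19) there were 10 SRA sites, 5 of them wide, which covered 61.5% of 79535 bp. Between 205177144 and 205265659 there were 13, again with 5 wide sites, covering 54.9% of 88516 bp. The densest was a group of 7 with 4 wide sites from 24608881 to 24658136, where SRA sites took up 76.5% of the span. A group on chromosome 16, from 75086277 to 75151658, held 12 SRA sites, 3 of them wide, and no p68 midpoint over its 65382 bp, whereas the 88516 bp group on chromosome 1 held 7.

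The p68 list was not used to choose the members, so p68 sites can be compared between wide and narrower SRA sites. Some of the measures still depend on the width that chose the members. A p68 site lay within, over or at most 500 bp from 113 wide SRA sites (17.1%, 95% Wilson interval 14.5 to 20.2%) and of 804 narrower ones (11.1%, 10.4 to 11.8%). The share over all SRA sites was 11.6%. This share depends on width itself, since a longer site reaches more p68 sites. With the whole p68 list shifted by fixed offsets of 100 kb to 1 Mb in both directions, 78 to 115 wide sites had a p68 site (median 97.5 over 20 shifted lists), and the number found was 1.16 times this median. For narrower sites the median was 509 and the number found 1.58 times as high. In contrast, 396 wide sites (60.1%) and 65.9% of narrower sites were more than 10 kb from any p68 site.

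Most of the wide sites with p68 had it at an edge. Of the 113, 89 had a p68 site over an edge or at most 500 bp from it and 24 had p68 only further inside. Narrower sites had it at an edge in a larger share, 774 of the 804 with p68, and 30 had it only further inside. Among wide sites, the left edge had p68 in 47 sites and the right edge in 49, and 7 sites had it at both. Counted over edges, with the same distance for every site, 96 of 1318 edges of wide sites (7.28%) and 839 of 14480 edges of narrower sites (5.79%) had p68. The ratio was 1.26 (95% interval 1.03 to 1.54) and did not pass the threshold of 0.05 after Benjamini-Hochberg adjustment over the 5 tests made (Fisher's exact test, adjusted p = 0.054). On chromosome 1 the shares were 7.79% and 8.09% (adjusted p = 0.83, exact test), and on the remaining chromosomes 6.40% and 4.93% (adjusted p = 0.27, exact test). The ratio was 1.01 when stratified by chromosome (adjusted p = 0.91, exact conditional test). It was 1.08 against narrower sites above the median width of all SRA sites (adjusted p = 0.47, exact test). In all, 74 p68 sites crossed an edge of a wide SRA site. They shared a median of 537.5 bp with it, and 58 of them (78.4%) had less than 50% of their length inside. For narrower SRA sites this was so for 484 of 595 (81.3%).

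Midpoints of p68 sites fell inside 54 of the wide SRA sites, with 1 in each of 49 sites and 2 in each of 5. This gave 59 midpoints in 4.35 Mb, or 13.6 per Mb (95% exact interval 10.3 to 17.5), against 10.1 per Mb (8.68 to 11.8) inside narrower sites. The ratio of 1.34 (0.978 to 1.81) did not pass the threshold (exact test of 2 rates, adjusted p = 0.060). Chromosome 1 gave 15.5 and 13.5 per Mb (ratio 1.15, adjusted p = 0.82, exact test), and the other chromosomes 10.1 and 8.59 per Mb (ratio 1.17, adjusted p = 0.57, exact test). Density varied with the distance from the edge, for which these ratios were not adjusted. In wide sites 1.72 of 4.35 Mb lay at least 2000 bp from an edge, against 0.254 of 17.0 Mb in narrower sites.

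The wide sites with 2 p68 midpoints inside show where p68 can lie. In chr1:205193004-205200256 (7253 bp) p68 sites of 1024 and 923 bp lay whole within the SRA site, with midpoints 3064 and 1879 bp from its nearest edge. In chr1:46685541-46692524 (6984 bp) they measured 1112 and 1543 bp, and in chr15:65097792-65106236 (8445 bp) 925 and 818 bp. All of these were more than 1000 bp from the edges by their midpoints. In chr1:32229888-32238756 (8869 bp) and chr1:200854349-200859936 (5588 bp), a p68 site crossed the left edge and another, of 2366 and 1917 bp, lay whole within the SRA site with its midpoint 1235 and 1070 bp from the right edge. Of the 12 widest SRA sites, 3 had p68 within 500 bp, and in 2 of these the p68 site crossed the right edge with its midpoint outside. The exception, the 11215 bp site on chromosome 1, held a p68 site of 1026 bp.

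**Figure D2:**
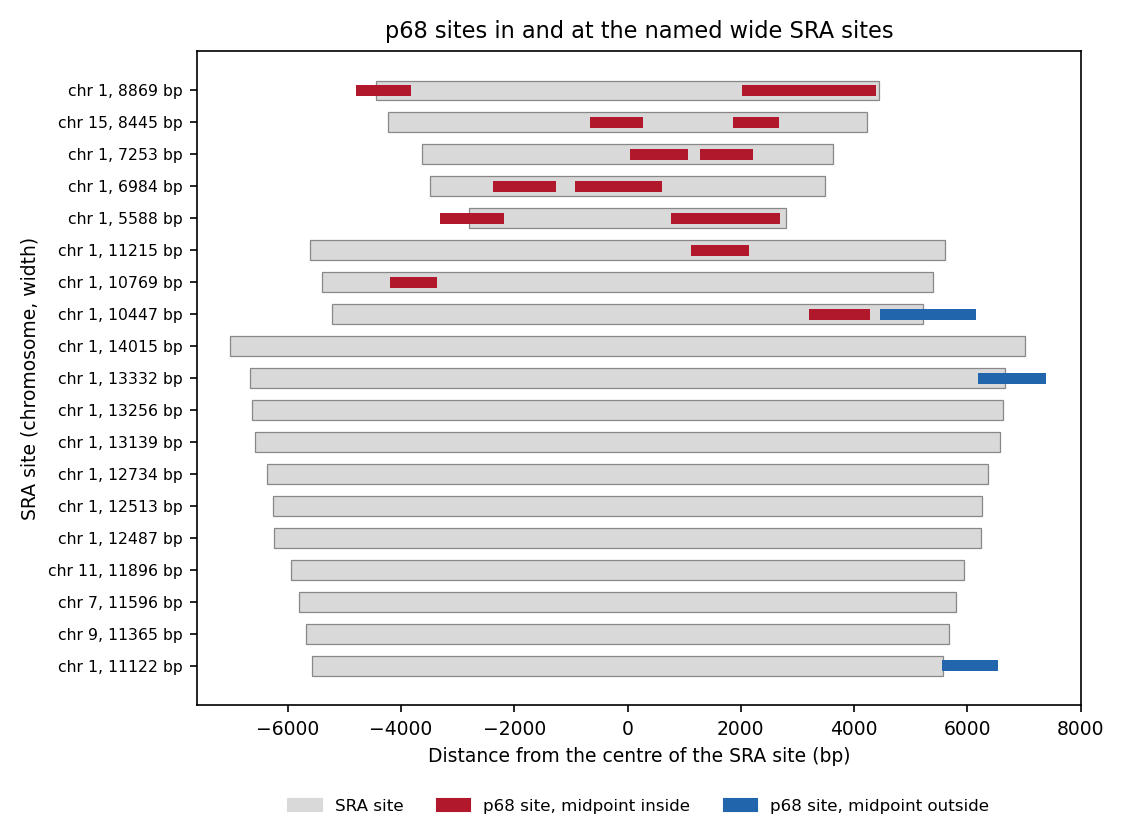
The 12 widest SRA sites and 8 wide sites with p68 midpoints inside, the 5 that hold 2 and the widest 3 of the 49 that hold 1 (1 site is in both sets), drawn as grey bars around their centre with distance in bp on the x axis, and p68 sites at most 500 bp away as narrow bars, red where the midpoint lies inside the SRA site and blue where it lies outside. The 5 uppermost sites hold 2 p68 midpoints each, while 9 of the 12 widest have no p68 site within 500 bp.

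In the first 500 bp outside wide SRA sites there were 42 p68 midpoints in 0.604 Mb, or 69.5 per Mb (50.1 to 93.9). Inside the same sites the density was 0.195 times as high (0.129 to 0.297, exact test of 2 rates, adjusted p = 5.7e-13). The ratio was 0.196 on chromosome 1 and 0.190 on the remaining chromosomes, past the threshold in both. Narrower sites had 50.3 per Mb in the first 500 bp outside, and the ratio of wide to narrower, 1.38 (0.977 to 1.91), did not pass the threshold (adjusted p = 0.060, exact test). Between 500 and 1000 bp away, wide and narrower sites had 35.3 and 35 per Mb. Between 1000 and 2000 bp they had 26.3 (17.5 to 38) and 20.6 (18.1 to 23.3), and at 5000 to 10000 bp both had 16.9 per Mb. This placement is by midpoints. When each p68 site was placed by its first base, the ratio of inside to outside was 0.731 (adjusted p = 0.40, exact test), and by its last base it was 0.937 (adjusted p = 0.78, exact test). The lower density inside therefore holds for midpoints and did not pass the test for either end of the p68 sites.

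**Figure D3:**
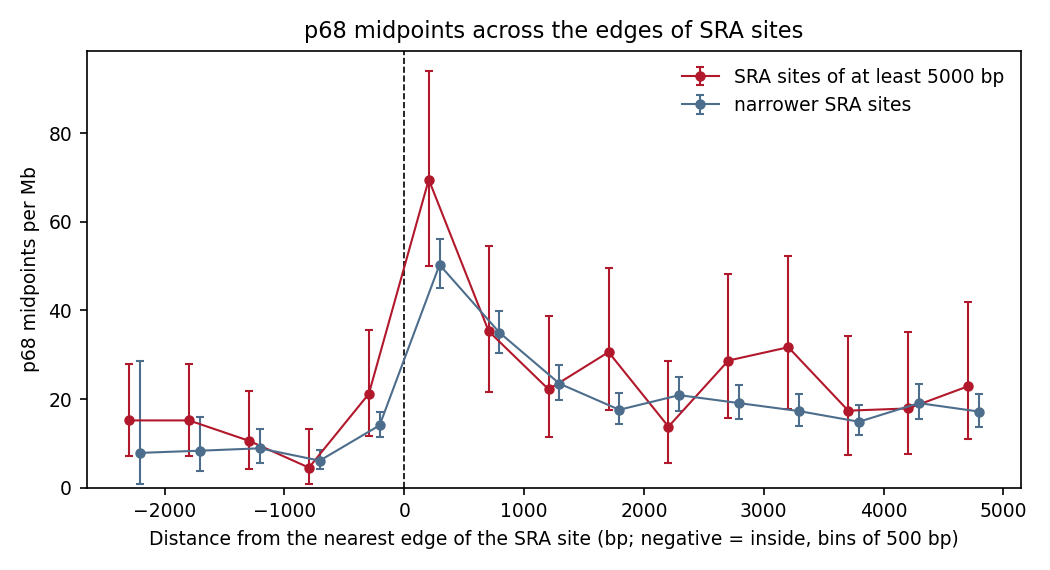
Density of p68 midpoints (per Mb) against the distance from the nearest edge of the SRA site in bins of 500 bp, negative inside, for the 659 wide sites (red) and the 7240 narrower sites (blue), with exact 95% intervals. Both classes peak in the first bin outside, at 69.5 and 50.3 per Mb, and are lowest from 500 to 1000 bp inside, at 4.55 and 6.13 per Mb.

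Wide sites have an interior that most SRA sites lack, and p68 midpoints were present deep inside. From the edge to 500 bp inside, the density in wide sites was 21.2 per Mb (11.6 to 35.6). In the next 500 bp it was 4.55 (0.939 to 13.3), at a depth of 1000 to 2000 bp it was 12.9 (7.51 to 20.7), and deeper than that it was 14.6 (9.42 to 21.5). The last value rests on 25 midpoints and its interval includes the 18.3 per Mb found 10 to 50 kb away from wide sites. At the same depths narrower sites had 14.1 (11.5 to 17.1), 6.13 (4.27 to 8.53), 8.75 (6.03 to 12.3) and 7.88 per Mb (0.954 to 28.5, 2 midpoints). Each of these intervals overlapped that of wide sites, so p68 inside and the dip from 500 to 1000 bp were not particular to wide sites. Of the 59 p68 sites with a midpoint inside, 43 lay whole within the SRA site (72.9%, 60.4 to 82.6%), against 61 of 172 (35.5%, 28.7 to 42.9%) for narrower sites, which have less room for a whole p68 site. By median width, p68 sites inside wide sites measured 1083 bp and those just outside 1398.5 bp, with 1185 bp for all p68 sites.

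The same 20 shifted p68 lists were set beside the counts by midpoint. Inside wide sites they held 67 to 101 midpoints (median 86), so that the 59 found were fewer than in any of the 20 and 0.686 times the median. On chromosome 1 the 43 found were likewise below all shifted lists (51 to 72). On the other chromosomes the 16 found lay within the range of the shifted lists (11 to 31, median 24). In the first 500 bp outside wide sites of all chromosomes, the shifted lists held 4 to 17 (median 12), so that the 42 found were more than in any and 3.50 times the median. Narrower sites gave 0.639 and 3.27 times their medians. These shifts are fixed and few, and are given as a description with no test. Only midpoints were counted in the shifted lists, so the contrast is given for midpoints alone. With p68 placed by its first base, the deposited list had 18.1 per Mb inside wide sites and 24.8 per Mb in the first 500 bp outside. By its last base these densities were 18.6 and 19.9 per Mb, much closer to each other than by midpoint.

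**Figure D4:**
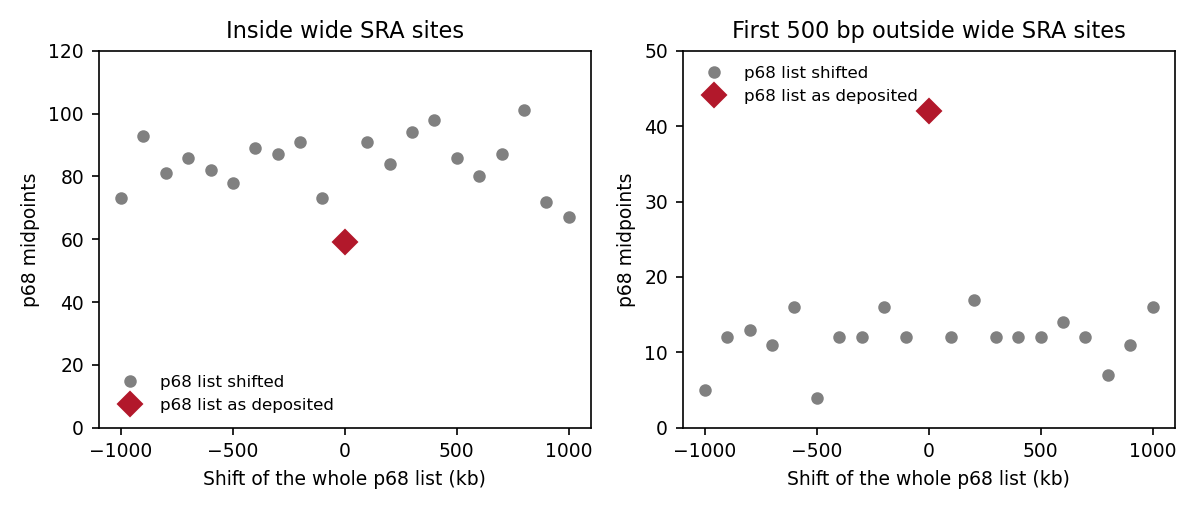
Number of p68 midpoints inside wide SRA sites (left) and in the first 500 bp outside them (right) for the p68 list as deposited (red) and shifted as a whole by 100 kb to 1 Mb in either direction (grey, 20 lists). The deposited list gives 59 inside, below all shifted lists, and 42 outside, above all of them.

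Density of p68 inside SRA sites was lowest in the narrowest class, at 8.13 per Mb (5.83 to 11) for sites under 2000 bp, and was 12.2 (8.29 to 17.3) for sites of 4000 to 5000 bp. Just above the threshold, in sites under 6000 bp, it was 11.5 (6.91 to 17.9). The wider classes gave 16.8, 13.2 and 10.5 per Mb in order of width, and the intervals of all wide classes overlapped. Wider classes also have more of their bases far from an edge, and these densities were not adjusted for that. In the first 500 bp outside, the 25 sites of 10000 bp or more gave 174 per Mb, but this is 4 midpoints with an interval of 47.3 to 445.

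**Figure D5:**
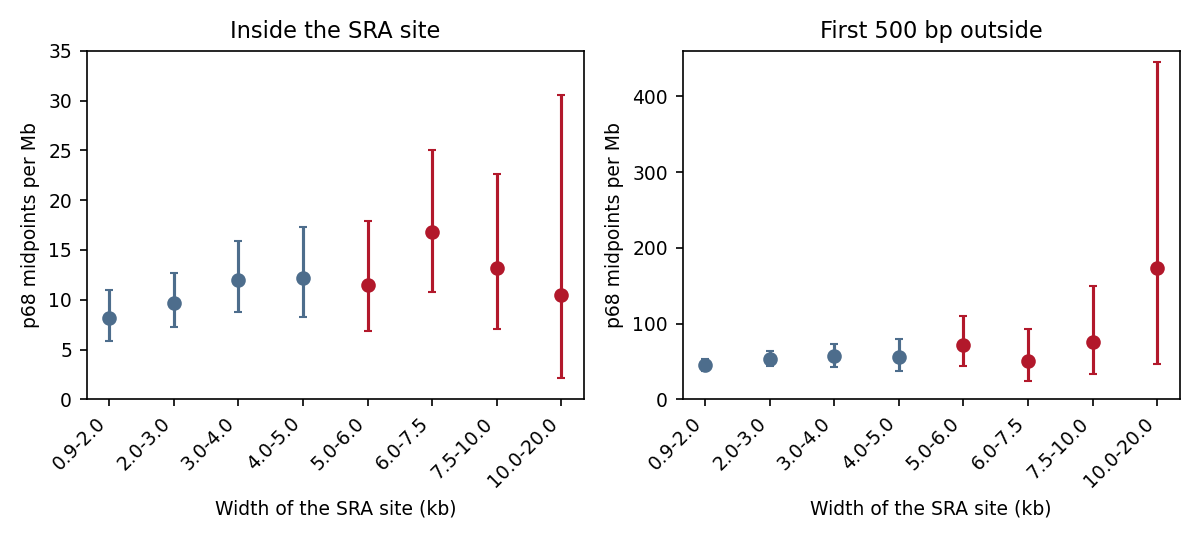
Density of p68 midpoints per Mb inside SRA sites (left) and in the first 500 bp outside them (right) by width of the SRA site in kb, with exact 95% intervals; red marks the classes of at least 5000 bp. Inside values run from 8.13 to 16.8 per Mb, and the widest class outside, 174 per Mb, rests on 4 midpoints.

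Farther away, p68 was denser around wide sites than around narrower ones. Between 10 and 50 kb from the nearest SRA site there were 18.3 p68 midpoints per Mb for wide sites (318 midpoints, 16.3 to 20.4) and 12.8 for narrower sites (2934 midpoints, 12.3 to 13.3). The ratio was 1.43 (1.27 to 1.61, exact test of 2 rates, adjusted p = 1.6e-08). The test treats p68 midpoints as independent, but the densities also differed between chromosomes. Its p-value and interval leave out that spread. Compared within chromosome 1, the densities were 18.8 and 18.1 per Mb, a ratio of 1.04 (adjusted p = 0.83, exact test). Stratified over all chromosomes, the ratio was 1.13 and no longer passed the threshold (adjusted p = 0.17, exact conditional test). Outside chromosome 1 the ratio was 1.53 (adjusted p = 2.9e-05, exact test). Leaving out chromosome 12 alone gave 1.21 over the remaining chromosomes, chromosome 1 included (adjusted p = 0.015, exact test).

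The chromosomes also differed in how many of their wide sites had p68 within 500 bp. Chromosome 1 had 80 of 417 (19.2%, against 15.2% of its narrower sites). The share was 23.8% before the long SRA-free stretch and 15.9% after it, and for narrower sites it was 17.1% and 13.8%. Chromosome 12 had 11 of 37 (29.7%, against 10.9% of its narrower sites). All 11 lay before 40 Mb, where 39.3% of wide sites and 23.5% of narrower sites (8 of 34) had p68. Chromosome 11 had 7 of 31 (22.6%, against 12.9%). Chromosome 7 went the other way, with 6 of 57 wide sites (10.5%) and 15.7% of narrower ones. So did chromosome 16, with 4 of 45 (8.89%, against 9.79%). Among the other chromosomes with at least 100 SRA sites and any wide site, the share was lower in wide sites on 9, 17 and 21. It was higher in wide sites on 8, 15 and 20, and all of these rest on few wide sites. On chromosomes 2 and 3, none of the 28 wide sites had p68 within 500 bp. By the rule of 3 counts (3 of 28, not a Wilson interval) this allows a share of up to 10.7%. Of the narrower sites there, 70 of 1150 had p68 (6.09%, below that limit).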

How the data were processed

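SRA ChIRP-seq and p68 ChIP-seq of NTERA2 were analysed from 1 deposited list of positions per assay, whose values are start and end in bp on hg19. Per the labels and methods, the authors sequenced single-end reads of 50 bp, used CASAVA 1.8.2, removed duplicates and reads with mapping quality under 20 with SAMtools, and called sites with MACS 1.4.2 at p-value limits of 1e-04 (SRA) and 1e-05 (p68). The aligner is not given in the sources used here. Replicate lists were intersected with ChIPpeakAnno and LacZ sites subtracted from SRA with bedtools. Which end points an intersected site keeps is not given in the sources used here, and the width of a site depends on it.

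Positions were used unfiltered, with the first base counted as 1. Bases outside SRA sites were given to the nearest site. Rates per Mb have exact Poisson intervals and shares Wilson intervals. Rates were compared with the exact binomial test of 2 counts given the bases covered, and edges with Fisher's exact test, two-sided. Benjamini-Hochberg adjustment was over 5 tests. Where an alternative reran only some of them, it was over those. This was so for stratification, narrower sites above the median width, first or last bases and other distances. Sites near each other share p68 sites, so p-values are approximate. The tests of rates also treat p68 midpoints as independent, and differences in p68 density between chromosomes are left out unless stratified. The scripts were tested on simulated data. Members, lists and tests were chosen with earlier results of these data known. Sites named singly are the 12 widest, 3 on each side of 5000 bp, 8 with most p68 midpoints inside (the widest first among ties) and the 5 groups with most wide sites, of which 4 are described. Joined stretches and the boundary on chromosome 12 were chosen after their values were seen, as was the comparison on chromosome 1 alone. Python 3.11.15, numpy 2.4.6, scipy 1.17.1, pandas 2.3.3 and matplotlib 3.10.9 were used. Alternatives were other width thresholds, distances, points of a p68 site, comparison sites, chromosomes and shifts.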

Additional observations from a re-analysis of the deposited data

How the results depend on the processing

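No paired analysis was possible because each assay has 1 intersected list, and for the same reason no replicate could be left out. Values for chromosome 1 alone were added after its number of wide sites was seen. The ratio of p68 density inside wide to inside narrower sites, 1.34, passed the threshold with wide sites taken from 4000 bp (1.34), with the widest site of each 10 kb group only (1.50) and without chromosome 7 (1.52) or 21 (1.36). It fell below 1, without passing, with p68 placed by its first (0.804) or last base (0.948). The ratio for the first 500 bp outside, 1.38, passed without chromosome 7 (1.50), 16 (1.43) or 21 (1.4) and fell to 0.869 with last bases. The ratio for edges, 1.26, passed from 4000 bp (1.24), for the widest site of each group (1.33), without chromosome 7 (1.33) or without any of chromosomes 9, 16, 20 and 21, and at a distance of 250 bp (1.34), and was 0.963 on chromosome 1 alone. Stratified by chromosome, these ratios were 1.09, 1.14 and 1.01, and against narrower sites above the median width 1.18, 1.22 and 1.08, none past the threshold. The ratio of inside to outside, 0.195, did not pass with first (0.731) or last bases (0.937). The ratio 10 to 50 kb away, 1.43, did not pass when stratified by chromosome (1.13) or on chromosome 1 alone (1.04). The share of wide sites with p68, 17.1%, was 13.6% without chromosome 1 and 23.1% for a gap of at most 2000 bp. Counts relative to shifted lists ranged from 0.627 to 0.748 inside and from 3.14 to 4 outside. These counts were by midpoint throughout, and first or last bases were not set against shifted lists. The causes of the changes in this section were not tested.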

Other observations

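Some neighbouring SRA sites in the list are separated by short gaps. Whether such sites belong to a single stretch of SRA was not tested. Of the gaps between neighbouring SRA sites, 209 were at most 100 bp long and 681 at most 500 bp. A wide site had such a neighbour within 500 bp in 116 cases (17.6%, 95% Wilson interval 14.9 to 20.7%), and narrower sites had one about as often (16%, 15.2 to 16.9%). Joining sites across gaps of at most 500 bp gave 888 stretches of at least 5000 bp in place of 659 sites, and 240 of them consisted of narrower sites only. Chromosome 1 then carried 59.1% of them, against 63.3% before. The widest joined stretch, chr1:48020281-48043084, measured 22804 bp and was made of 3 sites. Another, chr1:226836680-226853483 (16804 bp), was made of 5 sites of which none reached 5000 bp, so that it is absent from the members described above.

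Over the windows counted, the share of wide SRA sites in 10 Mb went together with the width of p68 sites, but not within chromosome 1. Over 90 windows with at least 20 sites of each kind, Pearson's r between the percent of SRA sites that were wide and the median width of p68 sites was 0.674 and Spearman's rho 0.595. Windows of a chromosome are not independent of each other and share libraries, so this is a description. Within chromosome 1 r was -0.0857 and rho -0.117 over 18 windows, and without it r was 0.738 and rho 0.380 over 72 windows. Outside chromosome 1 the correlation was thus weaker by rank. These windows include chromosome 12 from 0 to 10 Mb, where 38.6% of 44 SRA sites were wide. How far r depends on that window was not tested. By chromosome, median p68 width was highest on chromosomes 12 (1504 bp) and 1 (1501 bp), among those with at least 100 SRA sites.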
